A study of Mus musculus with 76 samples.

Results

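Brain RNA of male house mice that carried a t haplotype (+/t) was set against brain RNA of brothers that carried none (+/+). The members are the 10 libraries labelled as brain of an M animal, 5 of +/t and 5 of +/+, out of 76 libraries in the series. They form 5 sibling pairs, numbered 1, 2, 3, 5 and 6, each from a litter of its own. The mice were Mus musculus domesticus, bred in the laboratory from wild-caught stock of a population at Illnau (Switzerland) and kept to sexual maturity. No treatment, inbred strain or age in days is named for either group, and the variant of the t haplotype is not named. The value per gene is a read count, shown here as CPM, the count relative to the scaled size of its library. The comparison asks which brain transcripts differ between carriers of a male meiotic driver and their brothers.

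The proximal stretch of mouse chromosome 17 exists in an alternative form called the t haplotype. Inversions hold it together as a block, so its genes are inherited as a unit and seldom recombine with the wild-type chromosome. It is known for drive in males: distorter genes impair sperm and a responder gene protects the sperm that carry it, so that +/t males pass the haplotype to most of their offspring. The block also holds the major histocompatibility complex (MHC) and several genes of motile cilia and dynein motors. Drive acts in the male germ line, and the brain lies outside it.

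The +/t libraries held 18890952 to 23165159 counts (median 21351097) and the +/+ libraries 18805678 to 45203167 counts (median 21902617). The +/+ library of pair 3 was the deepest, and even numbers made up 67.8% of its gene counts from 20 to 500, where the 9 others had 49.8% to 51.1%. The +/+ library of pair 2 held RNA of odorant-binding proteins of the nose, with Obp1a at 1400 CPM, where none of the 5 +/t libraries had a count. The +/+ library of pair 1 held 13.6 CPM of Gh (growth hormone of the pituitary), against at most 0.0479 CPM in the +/t libraries. Cyp2g1, a nasal marker, stood at 9.25, 1.29 and 1.49 CPM in the +/+ libraries of pairs 1, 2 and 3, against at most 0.192 CPM in +/t. Neuron markers summed to 7300 to 8200 CPM in +/t and 6990 to 8100 CPM in +/+ libraries, and the testis markers Prm1, Prm2 and Tnp2 had no count in any library. Y-linked genes were present in every library, with sums of 105 to 157 CPM in +/t and 94.4 to 162 CPM in +/+. In whole brain, fewer cells of a type and less RNA per cell cannot be told apart.

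Of 15146 genes tested, 38 differed between +/t and +/+ brains at an adjusted p under 0.05, which is 0.251% of them. In +/t brains 16 were higher (0.106%) and 22 were lower (0.145%). The first 40 Mb of chromosome 17, called the t region here, held 34 of the 38. Of its 440 tested genes 7.73% were called, 13 higher (2.95%) and 21 lower (4.77%), against 4 of 14706 genes elsewhere (0.0272%). A further 249 genes of the region were too low to be tested. Outside the region 3 were higher (0.0204%) and 1 was lower (0.0068%). At an unadjusted p under 0.05 the shares were 31.6% inside the region, 7.74% outside it and 8.43% over all tested genes. The median log2 fold change was -0.02 over the tested t region genes and 0.01 over all tested genes, and 200 of the region's tested genes had positive and 238 negative fold changes.

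The called genes of the region began between 6106437 and 37010743 on chromosome 17 (GRCm38). The step from 5 to 10 Mb was the densest, with 8 of its 27 tested genes called (29.6%), from Tulp4 to Prr18. Of 25 tested genes known as members of the t complex 4 rose (Rsph3a, Rsph3b, Tcte3, Dynlt1c), 5 fell (Tulp4, Tagap, Tagap1, Dynlt1b, Acat2) and 16 were not called, with a median log2 fold change of 0.01. The step from 25 to 30 Mb held 9 of 113 (7.96%), and the step from 35 to 40 Mb, which holds much of the MHC, 5 of 68 (7.35%). None of the 281 tested genes of chromosome 17 beyond 40 Mb was called by edgeR, and their median log2 fold change was 0.01. In those 281 genes the shares at an unadjusted p under 0.05 ran from 0% to 19.2% per step of 5 Mb.

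**Figure D1:**
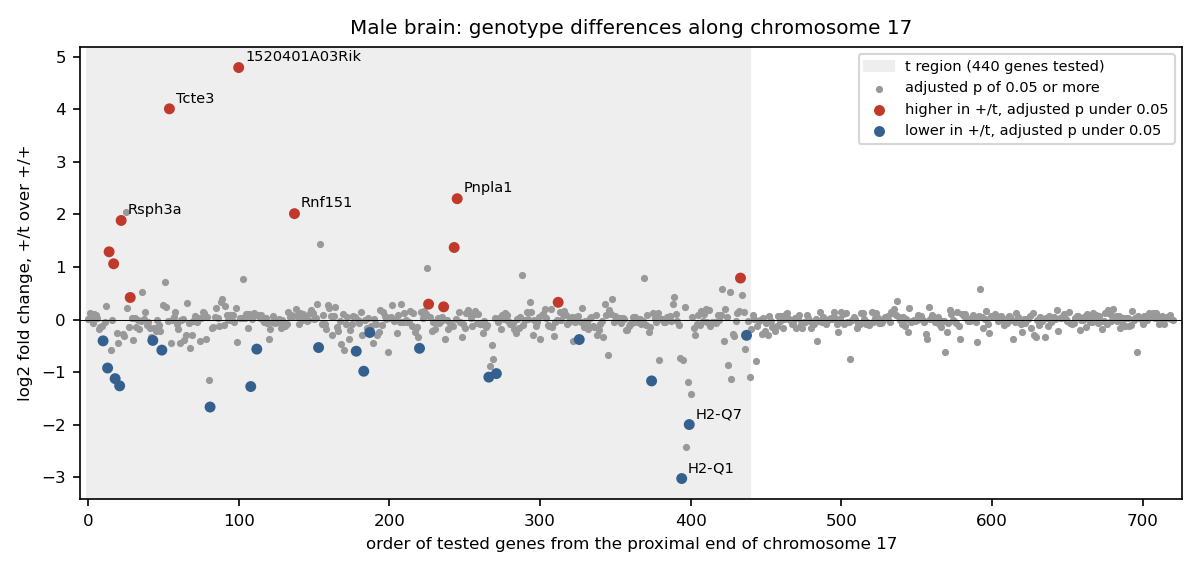
Each point is a tested gene of chromosome 17, placed by its order from the proximal end (x axis) against its log2 fold change of +/t over +/+ male brain (y axis), with the 440 genes of the t region on grey ground. The 34 called genes, red where higher and blue where lower in +/t, all lie on the grey ground, and the largest absolute values are those of 1520401A03Rik (4.79), Tcte3 (4.01) and H2-Q1 (-3.02).

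In 37 of the 38 genes the 5 pairs had the same sign, the exception being Obp2b. In 28 of the 38 the +/t and +/+ libraries did not overlap, where 101 of all 15146 tested genes (0.667%) had groups that did not overlap, 39 with +/t above (0.257%) and 62 with +/t below (0.409%). That share was 10.2% of the tested t region genes and 0.381% of the tested genes elsewhere. Both counts describe genes chosen by a test on the same pairs and lend the calls no further support. All 38 are annotated as protein coding, and 21 differed by at least 1 on the log2 scale. The filter on low counts was passed through both groups by 31 of them. 1520401A03Rik, Gm12355, Tcte3 and Pnpla1 passed only through +/t and H2-Q7 and Gm10226 only through +/+, so the filter favoured a difference in these 6. Hspa1a also passed only through +/t and was not called (adjusted p = 0.6235). How far the filter shaped the 6 calls was not tested. When each pair was left out in turn, between 19 and 39 genes were called, and 16 of the 38 were called every time, 14 in the t region and 2 outside it (Rnpepl1 and Gm12355). The count was 29 without pair 1, 22 without pair 2, 19 without pair 3, 39 without pair 5 and 24 without pair 6. It was 17 without pairs 1 and 2 together, whose +/+ libraries held nasal or pituitary RNA. The +/+ library of pair 3, kept in that fit, also held nasal RNA (Cyp2g1 at 1.49 CPM). The part of such RNA in the other calls was not tested.

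The remaining 22 genes were not called in at least 1 of the fits that left out a pair. Rpl10a, Msh5 and Mog were lost without any 1 of the 5 pairs. Smoc2, Gm10226, Pigq and Rps18 were lost without pair 1, 2, 3 or 6, and Rsph3b without pair 1, 3, 5 or 6. Acat2, Hmga1b and Dynlt1b were lost without pair 1, 2 or 3, Rab11b without pair 1, 3 or 6, and Amdhd2 and D17Wsu92e without pair 2, 3 or 6. Prr18 and Prss41 needed pairs 2 and 3, Dynlt1c pairs 2 and 6, and H2-Q7 pairs 3 and 6. Obp2b was lost without pair 2 and did not pass the filter without pair 6. Tagap was lost without pair 2, and Telo2 and Mapk13 without pair 3. Some called genes overlap another gene in the annotation, and the strand setting of the counting is not given. These are Jmjd8 with Stub1, Glo1 with Dnah8, Tcte3 with Ermard and Gm3448, Prss41 with Prss32, Pigq with Nhlrc4, Rps18 with Vps52, Hmga1 with AI413582 and Wdr90 with Rhot2.

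**Figure D2:**
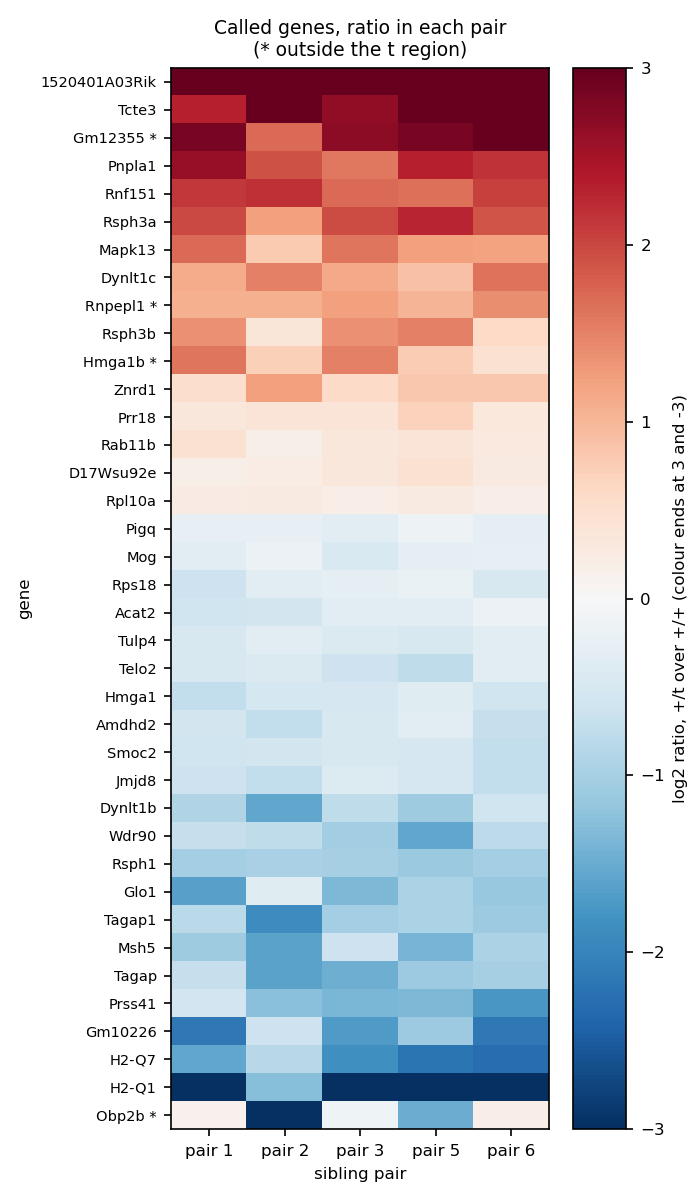
The 38 called genes run down the page and the 5 sibling pairs across it, and the colour is the log2 ratio of +/t over +/+ within a pair, red for higher and blue for lower in +/t (the scale ends at 3 and -3). Every gene keeps 1 colour across the pairs except Obp2b, which is dark blue in pair 2 and near white in pairs 1, 3 and 6.

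Of 9 tested radial spoke genes 3 were called, all in the t region: Rsph3a and its near-identical copy Rsph3b were higher in +/t, and Rsph1 was lower. Only these 3 of the 9 lie in the t region, where 7.73% of tested genes were called, against 0.251% of all tested genes. Radial spokes are protein stalks of the axoneme that help to set the beat of a cilium, which in the brain is carried by ependymal cells. Rsph1, a radial spoke head protein, had 8.15, 9.15, 8.41, 7.11 and 8.64 CPM in the +/t brains of pairs 1, 2, 3, 5 and 6, against 16.5, 18.1, 16.9, 15.5 and 17.5 CPM in the +/+ brains. Every +/t brain lay below every +/+ brain, and the level fell by 1.03 ± 0.07 on the log2 scale (SE, adjusted p = 5.24e-05). Rsph3a, another radial spoke gene, had 10.4, 11.3, 12.2, 11.2 and 8.38 CPM in +/t brains, against 2.56, 4.72, 3.06, 2.25 and 2.22 CPM in +/+ brains. It rose without overlap, with a log2 fold change of 1.89 ± 0.14 (adjusted p = 0.000108).

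Rsph3b, a near-identical copy of Rsph3a on the other strand of the same region, had 6.47, 7.86, 7.8, 7.41 and 4.27 CPM in +/t brains and 2.45, 6.05, 2.93, 2.55 and 2.81 CPM in +/+ brains. It rose by 1.06 ± 0.18 on the log2 scale (adjusted p = 0.035), and the groups overlapped through the +/+ brain of pair 2. The transcripts of both genes match at 99.4% over 1823 bases, so the share of reads given to each is uncertain. Summed over both, the level was 17.4 ± 2.91 CPM in +/t and 6.32 ± 2.53 CPM in +/+ brains (SD, n = 5 each), higher in 5 of 5 pairs. The reference copies differ by 5 of 60 bases in a stretch of the first exon, shown in GRCm38 with those bases in capitals. Whether these bases tell the copies apart in the wild-derived animals was not tested. Rsph3a lies on the plus strand at chr17:7946017-7946076 and Rsph3b on the minus strand at chr17:6948205-6948264.
Rsph3a: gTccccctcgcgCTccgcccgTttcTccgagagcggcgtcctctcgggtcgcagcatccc
Rsph3b: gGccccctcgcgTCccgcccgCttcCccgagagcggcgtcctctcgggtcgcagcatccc
Counted from 1 at the left end, the substitutions from Rsph3a to Rsph3b are T2G, C13T, T14C, T22C and T26C.

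The 6 other tested radial spoke genes were not called. The summed level of all 11 genes of the list, untested ones included, was 50.8 to 59.3 CPM in +/t and 48.9 to 60.8 CPM in +/+ brains. None of the 14 ependymal cell markers was called (0 at an unadjusted p under 0.05), 7 had positive and 7 negative fold changes, and their sums were 136 to 165 CPM in +/t and 126 to 164 CPM in +/+ brains. The groups overlapped in the sums of both lists. Wdr90, a protein of centrioles, had 9.12, 9.29, 8.23, 7.98 and 11.3 CPM in +/t brains, against 14.6, 15.9, 17.2, 23.7 and 19.4 CPM in +/+ brains. The groups were apart, and Wdr90 fell by 0.98 ± 0.12 on the log2 scale (adjusted p = 0.00394). It shares 81 bases with Rhot2 (a mitochondrial trafficking GTPase) on the same strand, which had a log2 fold change of -0.30 ± 0.06 (adjusted p = 0.0753).

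Dynein light chains of the Tctex family, small subunits that link cargo to dynein motors, are encoded in several copies in the region. Dynlt1c had 2.55, 2.87, 2.41, 3.08 and 3.95 CPM in +/t brains, against 1.12, 0.964, 1.05, 1.64 and 1.22 CPM in +/+ brains. It rose without overlap, by 1.29 ± 0.17 on the log2 scale (adjusted p = 0.00745). Dynlt1b went the other way, with 3.62, 0.91, 4.03, 2.9 and 4.43 CPM in +/t brains, against 6.8, 2.84, 6.87, 6.14 and 6.7 CPM in +/+ brains. Its log2 fold change was -0.92 ± 0.14 (adjusted p = 0.0165), and the overlap came from the +/+ brain of pair 2, which was low while its +/t brother was lower still. Dynlt1a (0.26 ± 0.14, adjusted p = 0.625) and Dynlt1f (-0.58 ± 0.25, adjusted p = 0.584) were not called. The 4 genes together gave 10 ± 2.1 CPM in +/t and 10.7 ± 1.93 CPM in +/+ brains (SD, n = 5 each), with overlapping groups and a mean log2 ratio of -0.10 ± 0.13 over the pairs. Their transcripts match at 98.8% to 99.6% over at least 771 bases. Dynlt1c and Dynlt1b differ by 1 base in 339 coding bases, C14A in the stretches shown, which lie on the plus strand at chr17:6601817-6601836 and chr17:6430219-6430238.
Dynlt1c: acttccaggcctcCgaggag
Dynlt1b: acttccaggcctcAgaggag
Reads elsewhere in the coding sequence cannot be placed on either copy by the reference, and how the authors' counting treated such reads is not given.

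Tcte3, a further Tctex-type light chain known from testis, had 0.866, 0.814, 1.01, 1.21 and 0.632 CPM in +/t brains, against 0.102, 0, 0.0876, 0.0433 and 0 CPM in +/+ brains. It was close to absent in +/+ brains, with 7 counts over the 5 libraries against 97 in +/t, and its log2 fold change was 4.01 ± 0.45 (adjusted p = 0.00233). It matches Gm3417 at 98.8% over 670 bases. Of 13 tested dynein light chain genes, 2 rose, 1 fell and 10 were not called, and their median log2 fold change was 0.08. Of the 13, 5 lie in the t region, the called ones among them.

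**Figure D3:**
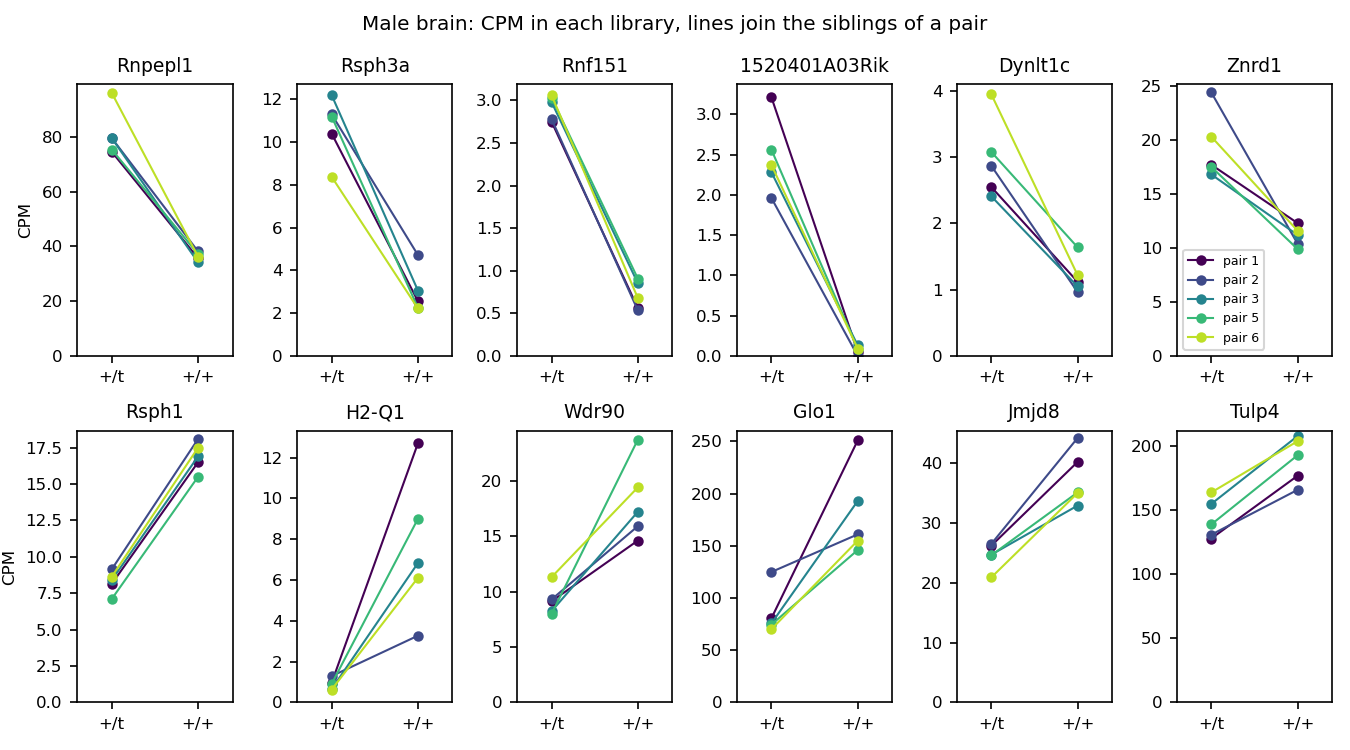
Each panel shows a gene, with CPM on the y axis and a line joining the +/t (left) and +/+ (right) brain of each pair. The upper row holds genes higher in +/t and the lower row genes lower in +/t, and in every panel all 5 lines slope the same way, for example for Rsph1 at 7.11 to 9.15 CPM in +/t against 15.5 to 18.1 CPM in +/+ brains.

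The distorter and responder list stands for the genes of the drive. Tagap1, a GTPase-activating protein known as a distorter in males, had 10.2, 4.22, 9.68, 9.93 and 9.91 CPM in +/t brains, against 18, 15.9, 19.8, 19.2 and 21.2 CPM in +/+ brains. It fell without overlap, with a log2 fold change of -1.12 ± 0.12 (adjusted p = 0.00233). Its copy Tagap, a GTPase-activating protein of activated T cells, had 1.94, 4.26, 1.14, 1.26 and 1.21 CPM in +/t brains, against 3.17, 13.2, 3.28, 2.77 and 2.49 CPM in +/+ brains. Tagap fell by 1.26 ± 0.16 on the log2 scale (adjusted p = 0.00664), was lower in +/t in 5 of 5 pairs, and stood at its highest in both brothers of pair 2. The transcripts match at 99% over 2152 bases, and the sum of both was 10.8 ± 1.37 CPM in +/t and 23.8 ± 3.09 CPM in +/+ brains (SD, n = 5 each). Both genes fell, and their sum was lower in +/t in 5 of 5 pairs. A coding stretch with differences at both ends is shown for Tagap on the plus strand at chr17:7933019-7933078 and for Tagap1 on the minus strand at chr17:6956829-6956888.
Tagap: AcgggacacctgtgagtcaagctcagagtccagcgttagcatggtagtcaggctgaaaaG
Tagap1: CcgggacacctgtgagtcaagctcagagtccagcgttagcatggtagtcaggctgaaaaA
The substitutions from Tagap to Tagap1 are A1C and G60A, and only 10 bases differ over 1381 aligned coding columns.

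The other tested drive genes were not called. Nme3, a nucleoside diphosphate kinase, had 11.4 to 18.1 CPM (median 15.1) in +/t and 11.9 to 16.2 CPM (median 12.7) in +/+ brains, and a log2 fold change of 0.18 ± 0.07 (adjusted p = 0.574). Tiam2, an exchange factor for Rac, had a log2 fold change of 0.13 ± 0.05 (adjusted p = 0.574), and Fgd2, an exchange factor for Cdc42, of 0.10 ± 0.14 (adjusted p = 0.84). Smok2a had no count in any library, and Smok1 was not analysed here.

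In the MHC, 2 of 16 tested class I genes were lower in +/t and none was higher. H2-Q1, a class I gene of the Q cluster, had 0.968, 1.29, 0.657, 0.91 and 0.632 CPM in +/t brains, against 12.7, 3.27, 6.83, 9 and 6.11 CPM in +/+ brains. All +/t brains were near 1 CPM while the +/+ brains spread over several CPM, and the log2 fold change was -3.02 ± 0.27 (adjusted p = 0.00044). H2-Q7, another Q gene, had 0.356, 0.383, 0.307, 0.217 and 0.211 CPM in +/t brains, against 1.23, 0.75, 1.31, 1.3 and 1.36 CPM in +/+ brains. The groups were apart, and its log2 fold change was -2 ± 0.29 (adjusted p = 0.0129). H2-D1, a classical class I gene that presents peptides to T cells, had 21.3 to 25.6 CPM (median 23.9) in +/t and 13.1 to 63.8 CPM (median 37.9) in +/+ brains, and was not called (-0.73 ± 0.26, adjusted p = 0.574). It was past the threshold without pair 2, whose +/+ brain held the 13.1 CPM (-1.08, adjusted p = 0.0358). H2-T24 gave the highest class I fold change (0.58 ± 0.25, adjusted p = 0.584).

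H2-Q5, also of the Q cluster, had 0.204, 0.0479, 0.394, 0.26 and 0.211 CPM in +/t brains, against 2.2, 3, 0.482, 0.735 and 0.724 CPM in +/+ brains. Its groups were apart, and its log2 fold change of -2.42 ± 0.53 was not called by edgeR (adjusted p = 0.2) and was called by DESeq2 (adjusted p = 0.0231). H2-Q10 (-1.41 ± 0.52, adjusted p = 0.574) and H2-Q6 (-1.19 ± 0.31, adjusted p = 0.399) were not called, and their groups overlapped. Over the 16 class I genes the median log2 fold change was -0.18, with 8 positive and 8 negative, and without pair 6 it was 0.03. Of the 16, 12 had an unadjusted p under 0.05. All but 1 of the 16 lie in the t region, where that share was 31.6% of tested genes, against 8.43% of all tested genes. None of the 8 tested class II genes (1 at an unadjusted p under 0.05) and none of the 10 antigen processing genes (0) was called. Class I reads can be shared among similar genes: H2-Q1 matches H2-Q2 at 93.3% over 1169 bases and H2-Q7 matches H2-Q10 at 94.9% over 1500 bases. H2-Q1 and H2-Q2 summed to 3.73 ± 0.851 CPM in +/t and 12.5 ± 5.09 CPM in +/+ brains (SD, n = 5 each), lower in 5 of 5 pairs and without overlap. The reference alleles of these 2 genes differ densely in their second exon, on the plus strand at chr17:35321009-35321068 for H2-Q1 and at chr17:35342788-35342847 for H2-Q2.
H2-Q1: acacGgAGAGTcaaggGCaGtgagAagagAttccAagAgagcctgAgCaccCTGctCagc
H2-Q2: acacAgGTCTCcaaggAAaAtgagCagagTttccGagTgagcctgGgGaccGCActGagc
Of the 60 bases 19 differ. The alleles of the wild-derived animals were not read here.

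Znrd1, Rpl10a and Rps18 were also called. Znrd1, a subunit of RNA polymerase I, which transcribes ribosomal RNA, had 17.7, 24.4, 16.8, 17.5 and 20.3 CPM in +/t brains, against 12.3, 10.4, 11.2, 9.9 and 11.6 CPM in +/+ brains. It rose without overlap, by 0.79 ± 0.10 on the log2 scale (adjusted p = 0.00451), and was the 1 call among 14 RNA polymerase I genes. Rpl10a, a protein of the large ribosomal subunit, had 82.7 to 90.7 CPM (median 86.8) in +/t and 70.8 to 78.4 CPM (median 71.6) in +/+ brains, also without overlap (0.24 ± 0.04, adjusted p = 0.0427). The pseudogene Rpl10a-ps1 on chromosome 1 matches Rpl10a at 100% over 654 bases and is not among the genes counted. Rps18, of the small subunit, had 77.3 to 99.3 CPM (median 86) in +/t and 95 to 151 CPM (median 109) in +/+ brains, with a log2 fold change of -0.38 ± 0.06 (adjusted p = 0.0234).

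Rps18 has a near-identical copy, Gm10260 on chromosome 13. Gm10260 had 29.1, 28.6, 21.1, 23 and 23.7 CPM in +/t brains, against 0, 37.2, 14.8, 13.5 and 14.6 CPM in +/+ brains. Gm10260 was not called (0.88 ± 0.48, adjusted p = 0.6235). The +/+ brain of pair 1 had no count of the copy and the highest Rps18 level of all 10 libraries. The sum of Rps18, Gm10260 and Gm11361 was 113 ± 11.3 CPM in +/t and 131 ± 19.5 CPM in +/+ brains (SD, n = 5 each), with overlap and a mean log2 ratio of -0.21 ± 0.12. The copies differ by 4 of 456 coding bases, of which the stretches on the minus strand at chr17:33952221-33952280 (Rps18) and chr13:97760206-97760265 (Gm10260) hold A14C and G48A.
Rps18: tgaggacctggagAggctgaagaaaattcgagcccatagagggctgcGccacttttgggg
Gm10260: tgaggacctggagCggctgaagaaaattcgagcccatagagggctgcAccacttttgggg
Over all 76 ribosomal protein genes, 71 had positive fold changes, 1 was called higher and 1 lower, and the median log2 fold change was 0.08. Over all tested genes 8002 of 15146 were positive. The pair medians of the 76 genes ran from -0.05 to 0.23. Their sums overlapped, at 10300 to 13300 CPM in +/t and 9490 to 12900 CPM in +/+ brains.

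Hmga1 and Srsf3 also have near-identical copies outside the region, on chromosome 11. Hmga1, an architectural chromatin protein encoded in the t region, had 22.2, 25.7, 20.7, 18.9 and 16.7 CPM in +/t brains, against 36.8, 37.2, 29.3, 24.3 and 25.4 CPM in +/+ brains. It fell by 0.55 ± 0.06 on the log2 scale (adjusted p = 0.0027), lower in 5 of 5 pairs although the groups overlapped. Hmga1b, its copy on chromosome 11, had 16.9, 10, 13.3, 13.3 and 9.65 CPM in +/t brains, against 5.47, 6.11, 4.6, 7.74 and 6.97 CPM in +/+ brains. Hmga1b rose without overlap, by 1.03 ± 0.16 (adjusted p = 0.0208). Together they gave 33.5 ± 4.72 CPM in +/t and 36.8 ± 5.57 CPM in +/+ brains (SD, n = 5 each), a mean log2 ratio of -0.14 ± 0.15. The transcripts match at 99.8% over 1602 bases, and no base was substituted in their aligned coding sequence.

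Gm12355, a gene on chromosome 11 that matches Srsf3 at 98.3% over 1298 bases, had 2.75, 2.3, 2.72, 2.08 and 2.27 CPM in +/t brains, against 0.307, 0.643, 0.35, 0.216 and 0.181 CPM in +/+ brains. It rose without overlap, with a log2 fold change of 2.86 ± 0.26 (adjusted p = 0.00044). Srsf3 itself, a splicing factor encoded in the t region, had 77.2 to 91.9 CPM (median 81.8) in +/t and 74.3 to 98 CPM (median 90.1) in +/+ brains and was not called (-0.09 ± 0.04, adjusted p = 0.62). The sum of both was 86.3 ± 5.85 CPM in +/t and 89.5 ± 9.31 CPM in +/+ brains, with overlap. In the stretches on the plus strand at chr17:29038545-29038604 (Srsf3) and on the minus strand at chr11:98625228-98625287 (Gm12355), the copies differ by C14T and T49G.
Srsf3: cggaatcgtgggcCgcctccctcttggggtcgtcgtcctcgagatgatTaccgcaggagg
Gm12355: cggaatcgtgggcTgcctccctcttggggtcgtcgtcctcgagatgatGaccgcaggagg
Which copy the reads came from was not tested.

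**Figure D4:**
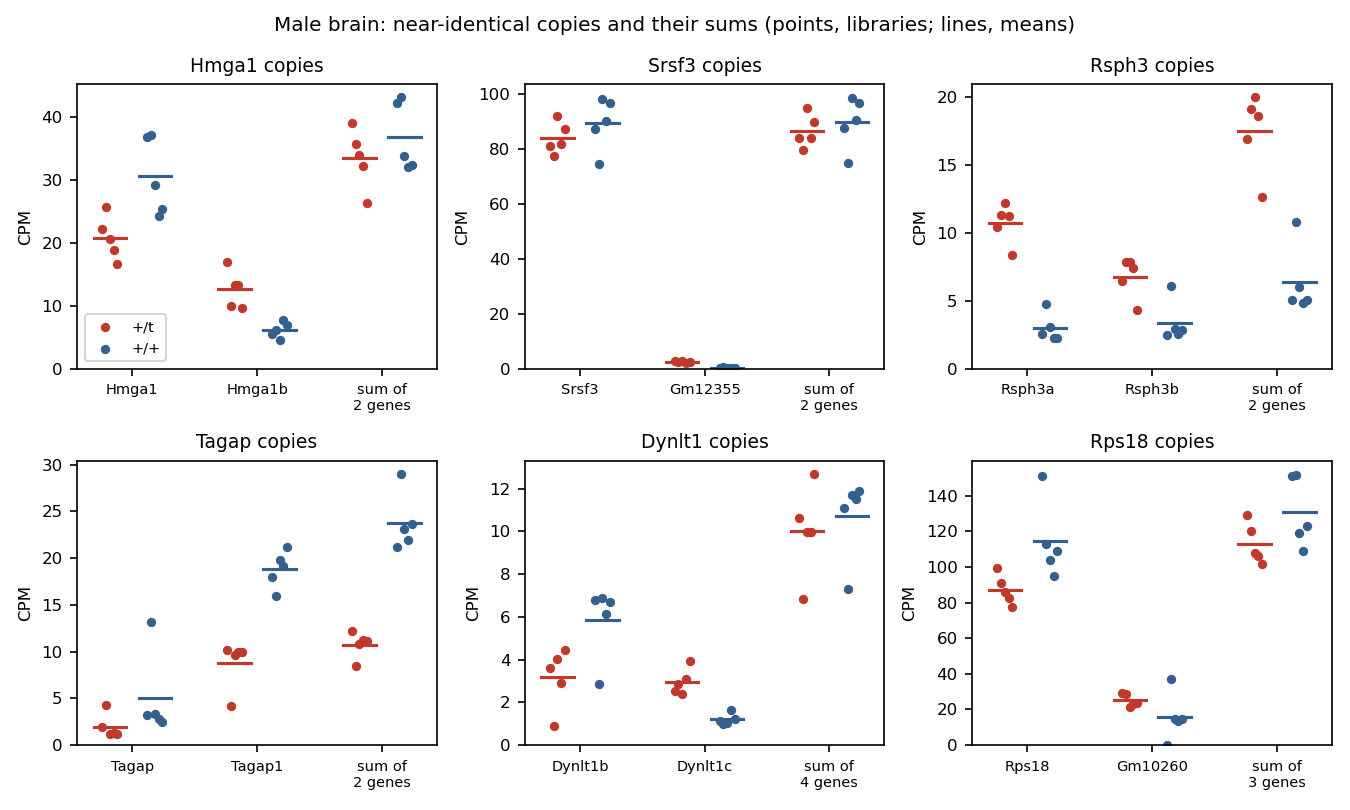
Each panel shows near-identical genes and their sum in CPM (y axis), with +/t libraries in red on the left and +/+ libraries in blue on the right of each pair of columns, and lines at the means. The sums of the Rsph3 and Tagap copies keep the groups apart (17.4 against 6.32 CPM and 10.8 against 23.8 CPM), and those of the Hmga1, Srsf3, Dynlt1 and Rps18 copies overlap.

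Among metabolic enzymes of the region Glo1, Amdhd2, Acat2 and Pigq were lower in +/t, and Pnpla1 was higher. Glo1, a glyoxalase that clears methylglyoxal, had 80.7, 125, 75.8, 74.6 and 70.2 CPM in +/t brains, against 251, 161, 193, 146 and 155 CPM in +/+ brains. It fell without overlap, by 1.09 ± 0.13 on the log2 scale (adjusted p = 0.00527), and had an adjusted p of 0.396 under robust empirical Bayes moderation in edgeR. Dnah8, which overlaps it on the opposite strand by 2518 bases, had 0.866 to 2.01 CPM (median 0.997) in +/t and 1.94 to 2.3 CPM (median 1.99) in +/+ brains, and was not called (-0.88 ± 0.20, adjusted p = 0.231). Amdhd2, which removes the acetyl group of N-acetylglucosamine 6-phosphate, had 7.85 to 11.5 CPM (median 10.3) in +/t and 12.8 to 18.7 CPM (median 14.1) in +/+ brains. The groups were apart (-0.56 ± 0.08, adjusted p = 0.0121), and Amdhd2 was the 1 call among 14 hexosamine pathway genes.

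Acat2, a cytosolic thiolase that makes acetoacetyl-CoA for sterol synthesis, had 33.2 to 37.1 CPM (median 35.5) in +/t and 42.1 to 52.2 CPM (median 46) in +/+ brains. It fell without overlap (-0.40 ± 0.06, adjusted p = 0.0306). Summed with its copy Acat3 the level was 41.2 ± 1.27 CPM in +/t and 54.1 ± 4.74 CPM in +/+ brains, still apart, and lower in 5 of 5 pairs. It was the 1 call among 20 cholesterol genes. Pigq, an enzyme of glycosylphosphatidylinositol anchors, had 93.4 to 115 CPM in +/t and 113 to 137 CPM in +/+ brains (-0.24 ± 0.04, adjusted p = 0.0408). Pnpla1, a lipase-family enzyme known from the skin barrier, had 1.68, 1.25, 1.62, 1.21 and 1.32 CPM in +/t brains, against 0.204, 0.268, 0.482, 0.173 and 0.226 CPM in +/+ brains. Pnpla1 was low in all 10 libraries and rose by 2.3 on the log2 scale (2.30 ± 0.26, adjusted p = 0.0027).

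Further called genes of the region were Tulp4, Jmjd8, Telo2, Mapk13, Rab11b, Smoc2 and Msh5. Tulp4, a tubby-like protein, had 128, 131, 155, 139 and 164 CPM in +/t brains, against 177, 166, 208, 193 and 204 CPM in +/+ brains. The groups did not overlap, and the log2 fold change was -0.40 ± 0.04 (adjusted p = 0.00144). The pseudogenes Gm2792 and Gm2808 of the region match Tulp4 at 99.7% over 3158 bases and are not among the genes counted. Jmjd8, a jumonji-domain protein, had 26.2, 26.5, 24.7, 24.6 and 20.9 CPM in +/t brains, against 40.2, 44.2, 32.9, 35.1 and 35 CPM in +/+ brains. It fell by 0.60 ± 0.06 on the log2 scale (adjusted p = 0.00144), without overlap. Stub1, a ubiquitin ligase that overlaps Jmjd8 on the opposite strand by 1339 bases, had 95.9 to 139 CPM in +/t and 105 to 145 CPM in +/+ brains (-0.01 ± 0.05, adjusted p = 0.947).

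Telo2, which stabilizes kinases of the DNA damage response, had 15.6 to 19.5 CPM (median 18) in +/t and 23 to 27 CPM (median 26.4) in +/+ brains (-0.53 ± 0.07, adjusted p = 0.00659). Mapk13, a stress-activated p38 kinase, had 2.21 to 3 CPM (median 2.83) in +/t and 0.869 to 1.61 CPM (median 0.919) in +/+ brains (1.37 ± 0.18, adjusted p = 0.00849). Both genes had groups that did not overlap. Rab11b, a GTPase of recycling endosomes, had 144 to 168 CPM in +/t and 116 to 149 CPM in +/+ brains (0.33 ± 0.05, adjusted p = 0.0142), and the overlap came from the +/+ brain of pair 2. The uncounted pseudogene Rab11b-ps2 matches Rab11b at 99.8% over 654 bases. Smoc2, a secreted calcium-binding matrix protein, had 5.24 to 7.03 CPM in +/t and 7.53 to 10.7 CPM in +/+ brains (-0.58 ± 0.09, adjusted p = 0.0165). Msh5, a meiotic recombination protein, had 0.527 to 1.21 CPM in +/t and 1.6 to 2.45 CPM in +/+ brains (-1.17 ± 0.20, adjusted p = 0.05). Its adjusted p lay just under the threshold, and it was not past it when any 1 pair was left out or with DESeq2.

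Rnf151, a RING finger protein known from testis, had 2.75, 2.78, 2.98, 3.03 and 3.06 CPM in +/t brains, against 0.562, 0.536, 0.854, 0.908 and 0.679 CPM in +/+ brains. It was even within each group and rose by 2.02 ± 0.18 on the log2 scale (adjusted p = 0.00044). 1520401A03Rik, whose function is not given here, had 3.21, 1.96, 2.28, 2.56 and 2.37 CPM in +/t brains, against 0.0511, 0, 0.131, 0.0865 and 0.0906 CPM in +/+ brains. It was nearly restricted to +/t brains, with 260 counts against 11 in +/+, and its log2 fold change was 4.79 ± 0.33 (adjusted p = 5.24e-05). Prss41, a serine protease, had 0.843 to 2.29 CPM in +/t and 3.03 to 4.76 CPM in +/+ brains (-1.27 ± 0.17, adjusted p = 0.00849). Gm10226 had 0.211 to 0.607 CPM in +/t and 0.857 to 1.64 CPM in +/+ brains (-1.66 ± 0.28, adjusted p = 0.0408). Gm10226 matches the counted genes Zfp51 at 97.3% over 255 bases and Zfp983 at 97.4% over 193 bases. How reads were split among them was not tested. D17Wsu92e had 345 to 427 CPM in +/t and 283 to 372 CPM in +/+ brains (0.29 ± 0.05, adjusted p = 0.0234). Prr18, a proline-rich protein, had 72.2 to 107 CPM in +/t and 58.3 to 82.4 CPM in +/+ brains (0.42 ± 0.06, adjusted p = 0.00887). D17Wsu92e and Prr18 were higher in +/t in 5 of 5 pairs, and their groups overlapped.

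Of the myelin genes, Mog was called. Mog, an oligodendrocyte surface glycoprotein encoded at the distal end of the called stretch, had 85.7, 89, 68.3, 75.9 and 84 CPM in +/t brains, against 107, 100, 94.1, 92.9 and 99.9 CPM in +/+ brains. The groups were apart and the log2 fold change was -0.30 ± 0.05 (adjusted p = 0.0347). Mog was not past the threshold when any 1 of the 5 pairs was left out. The other 11 oligodendrocyte markers were not called, 10 of the 12 had negative fold changes with a median of -0.06, and the sums were 9130 to 11400 CPM in +/t and 9080 to 11500 CPM in +/+ brains.

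Outside the t region, Rnpepl1 on chromosome 1 had the smallest p of all genes. Rnpepl1, a member of the M1 aminopeptidases that trim residues from the N-terminus, had 74.6, 79.6, 79.6, 75.4 and 96.1 CPM in +/t brains, against 35.7, 38.2, 34.2, 37.2 and 36.3 CPM in +/+ brains. Every +/t brain lay above every +/+ brain, and the log2 fold change was 1.16 ± 0.06 (adjusted p = 1.33e-05). No transcript of another gene matched it over 100 bases at 90% identity. It was called under all 14 alternatives tried. It was the 1 call among 9 tested M1 aminopeptidase genes, whose median log2 fold change was 0.03.

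Obp2b on chromosome 2, a lipocalin of the odorant-binding family, was called lower on a single library. It had 0.509, 0.24, 0.394, 0.173 and 0.896 CPM in +/t brains, against 0.46, 2110, 0.438, 0.649 and 0.77 CPM in +/+ brains. The +/+ brain of pair 2 held nearly all its reads, 3 of 5 pairs were lower in +/t, and the fitted log2 fold change of -9.50 ± 1.38 (adjusted p = 0.0145) was -0.29 without that pair (adjusted p = 0.845). In the same library Obp2a stood at 1490 CPM, Bpifa1 at 21 CPM and Cyp2a5 at 23 CPM. The 10 nasal epithelium markers summed to 275 to 301 CPM in +/t and 264 to 3200 CPM in +/+ brains, and 2 of them passed the filter. Gnal alone had 274 to 293 CPM in +/t and 250 to 292 CPM in +/+ brains. It made up most of each sum except that of the +/+ brain of pair 2. The 3 remaining calls outside the region were Rnpepl1, Gm12355 and Hmga1b.

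The 8 uncalled genes of smallest p inside the region and the 8 outside it are given next, with adjusted p from edgeR. Inside the region they were Neurl1b (0.29 ± 0.05, adjusted p = 0.0733), Lix1 (0.31 ± 0.06, 0.0753), Rhot2, Fgfr1op (-0.31 ± 0.06, 0.0895), Rgl2 (-0.41 ± 0.08, 0.107), Ptx4 (1.43 ± 0.29, 0.125), Rps6ka2 (-0.25 ± 0.05, 0.141) and H2-M3 (-1.09 ± 0.23, 0.148). Lix1 had 38.6 to 43.8 CPM in +/t and 30.1 to 36.2 CPM in +/+ brains, and Rgl2, a Ral exchange factor, 23.2 to 28.5 CPM in +/t and 31.3 to 39.8 CPM in +/+ brains. Both had groups that did not overlap. Outside the region they were Npc1l1 (-1.05 ± 0.19, adjusted p = 0.0733), Dock5, Igsf5, Pcp4, Slc6a5, Ahnak2 (-0.46 ± 0.10, 0.196), Hapln2 (-0.32 ± 0.07, 0.2) and Cnpy1 (-0.36 ± 0.08, 0.215). Of these genes DESeq2 called Neurl1b (adjusted p = 0.0112), Lix1 (0.014), Rhot2 (0.00185), Rgl2 (0.00499), Rps6ka2 (0.0324), Dock5 (0.0122) and Slc6a5 (0.00163), besides Igsf5 and Pcp4.

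Igsf5 and Pcp4 lie next to each other on chromosome 16. Igsf5, an immunoglobulin-family adhesion protein, had 330, 338, 323, 337 and 316 CPM in +/t brains, against 308, 263, 274, 268 and 285 CPM in +/+ brains. Pcp4, a calmodulin-binding neuronal protein, had 381, 379, 363, 389 and 365 CPM in +/t brains, against 355, 298, 323, 304 and 325 CPM in +/+ brains. Every +/t brain lay above every +/+ brain for both genes, with log2 fold changes of 0.24 ± 0.05 (adjusted p = 0.107) and 0.23 ± 0.05 (adjusted p = 0.141). DESeq2 called Igsf5 (adjusted p = 0.00185) and Pcp4 (adjusted p = 0.00377). A further gene model named Igsf5 shares 57975 bases with Pcp4 on the same strand, and how the counting split such reads is not given. Slc6a5, the neuronal glycine transporter, had 27.5 to 82.6 CPM in +/t and 48.8 to 99 CPM in +/+ brains (-0.40 ± 0.09, adjusted p = 0.191), lower in 5 of 5 pairs. Dock5, an exchange factor for Rac, had 13.6 to 20.7 CPM in +/t and 18.2 to 26.5 CPM in +/+ brains (-0.45 ± 0.09, adjusted p = 0.0926).

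Among 29 tested genes of neural function, 27 of them in the t region, Mog was the 1 call, and 9 had positive and 19 negative fold changes. In the lists of receptors, neuropeptides and responsive genes that follow, edgeR called no gene. Of 22 glutamate receptor genes none was called by edgeR, 3 had an unadjusted p under 0.05, and their median log2 fold change was 0.03. Grm4, a presynaptic glutamate receptor encoded in the t region, was the lowest of them, with 77.3 to 117 CPM in +/t and 90.5 to 189 CPM in +/+ brains (-0.33 ± 0.07, adjusted p = 0.231), and DESeq2 called it (adjusted p = 0.0048). None of 16 GABA receptor genes (median log2 fold change 0.08, 4 at an unadjusted p under 0.05), 19 monoamine genes (0.08, 2) or 18 feeding neuropeptide genes (0.05, 4) was called. The same held for 10 social neuropeptide and sex steroid genes (median 0.07, 2 at an unadjusted p under 0.05), 13 glucocorticoid-responsive genes (0.06, 1), 16 circadian clock genes (0.04, 1) and 12 heat shock genes (0.05, 0). Of 17 immediate early genes, which neurons switch on with activity, none was called, 3 had an unadjusted p under 0.05, and 15 had negative fold changes with a median of -0.17. Their summed level was 324 to 443 CPM in +/t and 318 to 708 CPM in +/+ brains, and the medians of the pairs ran from -0.62 to 0.31. Nr4a1, an orphan nuclear receptor of this group, had 19.6 to 32.1 CPM in +/t and 20.8 to 72.2 CPM in +/+ brains (-0.51 ± 0.21, adjusted p = 0.581).

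Among the cell type markers edgeR called Mog alone. All 10 striatum markers had positive fold changes (median 0.12), among them Drd2, a dopamine receptor, at 0.18 ± 0.05 (adjusted p = 0.519). Of 11 microglia markers 10 were positive (median 0.10), with C1qb, a complement component, at 0.25 ± 0.08 (adjusted p = 0.564). All 8 endothelial markers were negative (median -0.09), while their pair medians ran from -0.52 to 0.13. Other lists leaned to 1 side too. Positive were 8 of 8 GABAergic neuron, 9 of 10 astrocyte and 7 of 8 glutamatergic neuron markers, and negative 6 of 7 pericyte and fibroblast markers. Cerebellum and choroid plexus markers each had 4 positive and 4 negative fold changes. Summed striatum markers were 1270 to 1610 CPM in +/t and 1220 to 1510 CPM in +/+ brains, and summed microglia markers 274 to 358 CPM in +/t and 251 to 347 CPM in +/+ brains, so the groups overlapped in each.

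Female brains of 7 sibling pairs, fitted in the same way, gave 37 called genes of 15116 (0.245%), and 5.45% at an unadjusted p under 0.05. Among them were 25 of the 38 called in males, all in the same direction, which is 65.8% of the male and 67.6% of the female calls. Of the 37 male calls tested in females, 37 had the same sign. The male and female fits share no library, while 3 litters gave brains of both sexes. Rnpepl1 had a log2 fold change of 1.16 ± 0.06 in male and 1.44 ± 0.07 in female brain. Rsph3a had one of 1.89 ± 0.14 in male and 2.08 ± 0.14 in female brain, Jmjd8 of -0.60 ± 0.06 in male and -0.60 ± 0.05 in female brain, and Znrd1 of 0.79 ± 0.10 in male and 1.09 ± 0.07 in female brain.

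Of the 37 male calls tested in females, 25 had the larger absolute fold change in males, where the genes were chosen by their male test. In the edgeR test of male minus female effect, 12 of the 37 had an unadjusted p under 0.05, and none was past the adjusted threshold. H2-Q1 had 0.769 to 8.56 CPM (median 2.49) in +/t and 1.25 to 12 CPM (median 1.75) in +/+ female brains, and a log2 fold change of -0.04 ± 0.66 there. The male minus female difference for H2-Q1 was -2.98 ± 0.95 and was not past the threshold (adjusted p = 0.934). H2-Q7 differed by -1.83 ± 0.63 (adjusted p = 0.934) and Glo1 by -0.72 ± 0.24 (adjusted p = 0.934). Glo1 had 71.5 to 164 CPM in +/t and 124 to 234 CPM in +/+ female brains. Mog was at -0.06 ± 0.06 in female brain, a difference of -0.25 ± 0.09 (adjusted p = 0.934). In the test of male minus female genotype effect 1 of 15624 genes was called (0.0064%, and 5.27% at an unadjusted p under 0.05), Cyp2a5, an enzyme of the nasal mucosa and liver, at -5.96 ± 0.77 (adjusted p = 0.00923). Cyp2a5 had 0 to 0.431 CPM in +/t and 15.3, 23, 3.9, 0.26 and 0.136 CPM in +/+ male brains of pairs 1, 2, 3, 5 and 6. The next genes were Obp2b and Bpifa1 (both adjusted p = 0.0514), Ugt2a2 (0.0859) and Cyp2f2 (0.125), each highest in the +/+ brain of pair 1 or of pair 2. Cyp2a5 was not called without pair 1, without pair 2 or under robust moderation.

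**Figure D5:**
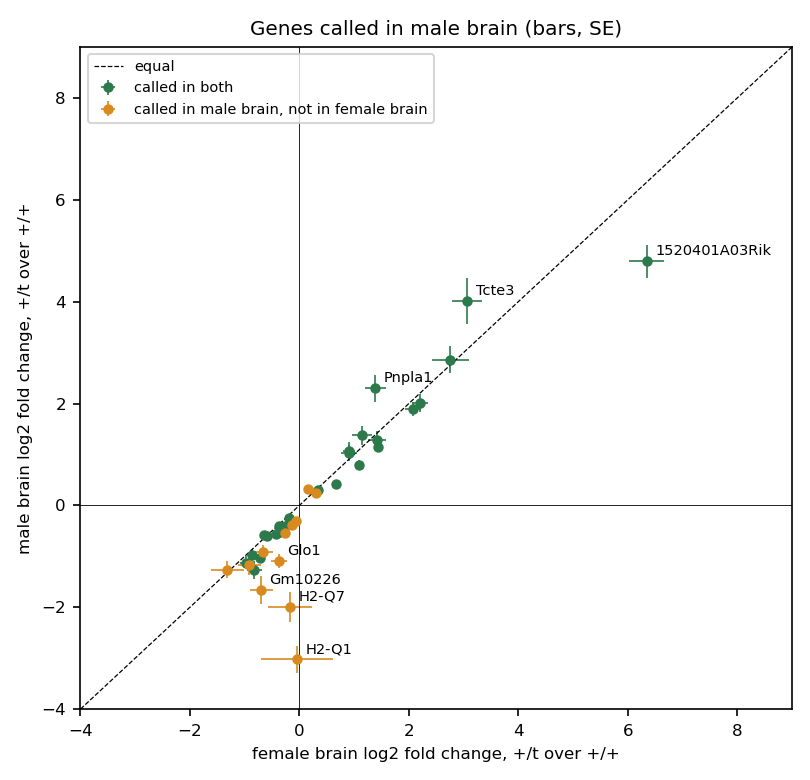
Points are the 37 genes called in male brain and tested in female brain, with the female log2 fold change of +/t over +/+ on the x axis and the male value on the y axis, bars for SE and a dashed line of equality. Of the 25 genes called in both, 1520401A03Rik (4.79 in males, 6.34 in females), Tcte3 (4.01 in males, 3.07 in females) and Pnpla1 (2.30 in males, 1.39 in females) lie farthest from the line, and H2-Q1 (-3.02 in males, -0.04 in females) lies farthest below it.

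In liver of 7 male pairs 9 of 11938 genes were called (0.0754%, and 4.85% at an unadjusted p under 0.05), among them 5 of the 38 brain calls: Rnpepl1 (0.39 ± 0.05), Rsph3a (3.07 ± 0.28), Jmjd8 (-0.79 ± 0.06), Znrd1 (1.01 ± 0.10) and Amdhd2 (-0.73 ± 0.08). Of 25 brain calls tested in liver 23 had the same sign. The titles and genotype labels of the liver libraries of pair 3 do not tie them to the same animals as in brain, and pair 3 was left out of the test of brain minus liver. That test used both tissues of pairs 1, 2, 5 and 6 and called 1 of 15729 genes (0.00636%, and 2.99% at an unadjusted p under 0.05), H2-Q1, at -2.65 ± 0.28 (adjusted p = 0.0136). In liver H2-Q1 had 23.5 to 51.4 CPM (median 31.7) in +/t and 13.9 to 54.8 CPM (median 31.1) in +/+ males, with a log2 fold change of 0.15 ± 0.23. The H2-Q1 levels of +/t males lay within the range of +/+ males in liver and below all +/+ males in brain. H2-Q1 was the call in the fit without pair 6, and was not called without pair 1, 2 or 5.

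The next genes of that test were H2-T3 (5.31 ± 0.77, adjusted p = 0.152), Rnpepl1 (0.82 ± 0.14, adjusted p = 0.391), Dmbt1 (adjusted p = 0.391) and Neu1, a lysosomal sialidase (-0.79 ± 0.15, adjusted p = 0.936). Neu1 had 41.9 to 47.9 CPM in +/t and 44 to 56.6 CPM in +/+ male brains, against 41 to 67.6 CPM in +/t and 26.4 to 36.5 CPM in +/+ male livers. Rnpepl1 had 73.5 to 90.9 CPM in +/t and 54.6 to 72.3 CPM in +/+ livers, and DESeq2 called its difference between the tissues together with those of H2-Q1 and H2-T3.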

How the data were processed

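RNA was measured in brain libraries of 5 male sibling pairs, beside 7 female brain pairs and 7 male liver pairs. Per the labels, RNA of brain was isolated by phenol and chloroform, and the TruSeq Stranded mRNA kit of Illumina gave the libraries. The submitters' processing notes name GRCm38, STAR 2.5.1b and featureCounts. The values that the authors deposited are whole-number read counts per gene. No source used here gives the strand setting, the annotation release or the handling of reads with several matches.

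GENCODE M21 gave positions for 25472 of the 25567 genes in the files, and 95 stayed without. After filterByExpr (minimum count 10), genes were scaled with TMM factors and tested with the edgeR 4.0.16 quasi-likelihood test in R 4.3.3, with the sibling pair as a block and Benjamini-Hochberg adjusted p under 0.05. The biological coefficient of variation was 7.17%. Pairs come from the sibling tag of the labels. The correlation between siblings, each taken as deviation from its genotype mean, was 0.0137 to 0.531, and 7 of 10 libraries were closest to their own sibling. Differences of genotype effect were tested over 24 brain libraries (genotype by sex) and 16 libraries of 4 male pairs (genotype by tissue). The SE was computed as the size of the unshrunk log2 fold change divided by the square root of the F statistic. The animals of a group come from different litters. With the sibling pair as a block, p-values of the genotype comparison rest on the spread of the sibling difference over pairs. Variation that siblings share is taken out. CPM are on TMM-scaled library sizes. Transcripts were compared with blastn 2.17.0 (at least 100 bases at 90% identity), and coding stretches were read from the GENCODE M21 transcripts. The edgeR and DESeq2 1.42.0 fits were tested on simulated data.

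Named genes were every called gene, the 8 uncalled genes of smallest p inside and outside the t region, extremes of each list, the distorter list, the first genes of each difference test and copies of called genes. Genes that overlap a called gene, nasal and pituitary genes, and Obp1a, Obp2a and Gh were added after their values were seen. Members and lists were chosen with earlier results of these data known. Alternatives were DESeq2, relative log expression factors, TMM without chromosome 17, no filter, a minimum count of 50, no block, each pair left out, halved counts of 1 library and other region ends. Robust moderation, and leaving out pairs 1 and 2 together, were added after seeing the data.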

Additional observations from a re-analysis of the deposited data

Results flagged for a closer look

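Of 134 groups of 5 libraries looked at for a sample far from the others, 13 had one, where chance gives about 1 in 20, and 12 of the 13 were libraries of pair 2. The +/t brain of pair 2 stood apart with 4.22 CPM for Tagap1, 125 CPM for Glo1 and 4.26 CPM for Tagap. The +/+ brain of pair 2 stood apart with 13.2 CPM for Tagap, 1.61 CPM for Mapk13, 0.75 CPM for H2-Q7, 149 CPM for Rab11b, 2110 CPM for Obp2b, 2.84 CPM for Dynlt1b and 6.05 CPM for Rsph3b. It did so also in the summed copies, with 10.8 CPM for Rsph3a and Rsph3b and 7.29 CPM for the 4 Dynlt1 genes. For Tagap both brothers of pair 2 were the highest of their group, and for Tagap1 both were the lowest of theirs. The other outlying sample was the +/t brain of pair 6 with 96.1 CPM for Rnpepl1.

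The genotype effect differed between groups for a gene in each of 2 tests. For Cyp2a5 the male minus female brain difference was -5.96 on the log2 scale, with levels of 15.3 and 23 CPM in the +/+ male brains of pairs 1 and 2. For H2-Q1 the male brain minus male liver difference was -2.65 on the log2 scale.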

How the results depend on the processing

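All calls of the +/t against +/+ comparison numbered 52 with DESeq2, 37 with relative log expression factors, 109 without a filter, 27 at a minimum count of 50, 40 with robust moderation, 38 with the counts of the +/+ library of pair 3 halved and 17 without pairs 1 and 2. Leaving out 1 pair gave 19 to 39 calls (higher 9 to 15, lower 10 to 24, t region 16 to 33, other genes 2 to 6). Without the replicate block 19 genes were called, 8 of them lower and 16 in the t region, and 19 of the named called genes and 10 of the list genes remained past the threshold. Without a filter 87 were lower and 62 lay outside the region. Among the 62 were nasal and pituitary genes (Obp1a, Obp2a, Bpifa1, Cyp2g1, Cyp2a5, Ugt2a1 and Gh), each highest in the +/+ brain of pair 1 or of pair 2. The 62 also held genes without this pattern, such as Igsf5, Pcp4 and Slc6a5. At a minimum count of 50, 9 were higher and 2 lay outside. Other genes numbered 9 with DESeq2 and 9 with the region ending at 35 Mb. Without pairs 1 and 2, 8 were higher, 9 lower, 12 in the region, and 14 of the named called genes remained. Over single pairs left out, 19 to 34 of the named called genes and 12 to 21 of the 22 called list genes remained, and 3 list genes with the t region members left out. The cause of these shifts was not tested, apart from the fewer genes or libraries that some settings hold.

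The male minus female test called 24 genes without a filter, 0 without the replicate block, 0 with robust moderation and 0 to 3 without 1 pair. The 24 held nasal genes such as Obp1a, Obp2a, Bpifa1 and Cyp2a5. The brain minus liver test called 3 genes with DESeq2, 0 without the replicate block and 0 to 1 without 1 pair. Among the 38 called genes, 407 of 522 values under the alternatives stayed past the threshold, 115 did not, and none turned its sign. Fgd2 turned to -0.032 without pair 1 and -0.004 without pairs 1 and 2 (-0.032 to 0.176 over single pairs). Stub1 turned to 0.001 without pair 1, 0.009 without pair 6 and 0.02 without pairs 1 and 2 (-0.047 to 0.009 over single pairs). Depth limits genes under about 1 CPM, such as Tcte3 with 7 counts in +/+ brains.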
